A study of Homo sapiens with 12 samples.

Results

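The MYC, MAX and MXD network is a set of transcription factors that pair through a basic helix-loop-helix leucine zipper. It was described here through 10 genes, MYC, MYCN, MAX, MXD1, MXD3, MXD4, MXI1, MNT, MLX and MLXIP, chosen by name and matched to the count table through their Ensembl identifiers. They are 10 of 60664 genes in the table, and 9 of them were among the 17349 genes with enough reads to be tested. RNA was sequenced from 12 libraries of the human lines TOM-1 and RS4;11, both from B-cell acute lymphoblastic leukaemia. TOM-1 has the Philadelphia chromosome with its BCR::ABL1 fusion, and RS4;11 has a KMT2A rearrangement. The title of the series concerns ASS1, the enzyme that lets cells make arginine from citrulline, in Philadelphia chromosome-positive leukaemia. The 4 groups, with 3 libraries each, were TOM-1 control, TOM-1 ADI-PEG20, RS4;11 control and RS4;11 ADI-PEG20. ADI-PEG20 is arginine deiminase, an enzyme that degrades arginine, joined to polyethylene glycol, and it was given at 1000 ng/ml for 24 h. Control cultures ran for the same time. All 4 groups are given as lymphoblasts of wild-type genotype from blood, and all grew in RPMI with fetal bovine serum, penicillin and streptomycin. Each line stands for 1 leukaemia, so a difference between the lines cannot be told apart from a difference between their genotypes. Nothing in the labels says that the 3 libraries of a group came from separate cultures, so p-values measure only the spread between these libraries, which may be technical.

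MAX is the shared partner of the network. MYC or MYCN bound to MAX activates genes that carry the E-box CACGTG, many of them for ribosome assembly, nucleotide synthesis and growth, whereas MXD1, MXD3, MXD4, MXI1 and MNT bind MAX in place of MYC and bring SIN3 corepressors with histone deacetylases to the same sites. MLX is a second shared partner, and with MLXIP, also called MondoA, it moves to the nucleus when hexose phosphates accumulate and activates TXNIP and ARRDC4. MYC is a short-lived protein with a short-lived transcript, and in lymphoid leukaemia its level is tied to growth and to the supply of nutrients.

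In TOM-1, MYC and MXD4 transcripts were lower with ADI-PEG20, and MXD1, MXI1 and MLXIP transcripts were higher. MNT also passed the test as lower, but its libraries overlapped. Its call was lost in 5 of 12 fits that left out a library each. In RS4;11 none of the 9 tested genes passed the test, and the control and treated libraries overlapped for each of them. With all 12 libraries MYC fell 1.58-fold in TOM-1 and MXD1 rose 4.13-fold. Without TOM-1 control replicate 3, a library set apart below, these changes were 1.53-fold and 3.52-fold. MAX and MXD3 then also passed as higher. MYC itself did not differ between the untreated lines beyond their spread, while MXD4, MXD3, MLXIP and MAX were higher in untreated TOM-1 than in untreated RS4;11 and MXD1 and MNT were lower.

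The E-box is printed here in capitals where it occurs before the start of a member, to show which of the genes described below carry the element that their own proteins bind. RefSeq windows on GRCh38.p14, from 250 bases before to 50 bases after a start, were supplied for 9 of the 10 genes, all but MYC, with 12 windows in all, since MAX and MXI1 have several starts. CACGTG, searched on both strands, was found in 3 of 12 windows (25.0%), those of MXD4, MNT and MLX. It was found in 7.26% of all 35116 promoter windows. CACGCG, a weaker form of the element, also searched on both strands, was found in 2 of 12 windows (16.7%), those of MXD3 and one start of MXI1, and in 11.4% of all windows. Offsets count from the start site as 0. Each line gives the bases that lie before the start and outside any GENCODE exon, 5′ to 3′ on the gene's own strand. For each gene printed here the RefSeq start used lies inside the gene as GENCODE places it, farthest inside for MXD1. Each printed stretch therefore ends before the start used.
MXD4, chr4:2262295-2262359, minus strand, E-box at offset -238: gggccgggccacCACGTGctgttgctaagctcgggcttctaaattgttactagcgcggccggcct
MNT, chr17:2401119-2401310, minus strand, E-box at offset -193: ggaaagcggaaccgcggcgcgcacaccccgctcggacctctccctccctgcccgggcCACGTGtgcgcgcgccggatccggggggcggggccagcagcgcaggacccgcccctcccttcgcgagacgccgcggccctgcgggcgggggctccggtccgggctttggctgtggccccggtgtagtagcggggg
MLX, chr17:42566850-42567067, plus strand, E-box at offset -50: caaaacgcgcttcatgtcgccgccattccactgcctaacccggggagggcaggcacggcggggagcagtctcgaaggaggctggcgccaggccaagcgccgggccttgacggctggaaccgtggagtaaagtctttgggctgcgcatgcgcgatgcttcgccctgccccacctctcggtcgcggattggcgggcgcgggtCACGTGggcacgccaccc
MXD1, chr2:69914859-69915040, plus strand, no E-box: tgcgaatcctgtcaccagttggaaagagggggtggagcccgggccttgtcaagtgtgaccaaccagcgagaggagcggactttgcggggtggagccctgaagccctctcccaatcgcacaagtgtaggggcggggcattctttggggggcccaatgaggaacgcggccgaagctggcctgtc
MLXIP, chr12:122078506-122078721, plus strand, no E-box: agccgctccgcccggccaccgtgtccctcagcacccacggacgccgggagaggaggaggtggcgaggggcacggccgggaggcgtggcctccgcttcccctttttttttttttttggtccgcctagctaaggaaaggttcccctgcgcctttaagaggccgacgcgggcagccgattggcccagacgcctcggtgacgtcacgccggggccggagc
These matches describe letters only, and nothing about binding was measured.

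Before the values, 1 library needs to be set apart. Total counts ran from 18958144 to 35956959 per library. TOM-1 control replicate 3 detected 14963 genes, where the other 11 libraries detected between 19857 and 21997. Ribosomal protein genes took 17.8% of its counts, against 5.33% to 8.95% in the others. Levels are in CPM, counts-per-million reads with TMM library scaling, which allows for differences in composition. Its log2 CPM correlated with those of its 2 replicates at r = 0.921 and 0.926, and r was at least 0.975 for the replicate pairs that do not include it. TOM-1 results are therefore given from all 12 libraries and also with this library left out. The members' log2 fold changes in RS4;11 were the same to 2 decimals in both fits. The lines matched their labels. HOXA9, HOXA10 and MEIS1, high in KMT2A-rearranged leukaemia, had 0 counts in every TOM-1 library and summed to 219.7 to 244.2 CPM in RS4;11 libraries. The 10 B lineage markers summed to 6794 to 8443 CPM in untreated TOM-1 and 7149 to 7438 CPM in treated TOM-1. They summed to 2867 to 3098 CPM in untreated and 2955 to 3327 CPM in treated RS4;11. The 5 T cell markers and the 5 erythroid markers each summed to less than 0.5 CPM in every library, and the 6 myeloid markers to between 10.3 and 27.4 CPM.

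ADI-PEG20 was compared with control in TOM-1 first. With all 12 libraries, 6 of the 9 tested members passed an adjusted p of 0.05 in edgeR's quasi-likelihood test, 3 higher and 3 lower, while 31.9% of all 17349 tested genes passed it, 15.9% higher and 15.9% lower. Their median log2 fold change was -0.02, beside 0.05 for all tested genes. The control and treated libraries did not overlap for 7 of the 9, as for 46.2% of all tested genes. Without TOM-1 control replicate 3, 8 of the 9 passed, 5 higher and 3 lower, as did 41.6% of 18321 genes (21.8% higher, 19.8% lower), and 9 of 9 did not overlap, as for 59.0% of genes. Their median was then 0.28, beside 0.00 for all genes. The members' median absolute log2 fold change was 0.66 with all libraries, beside 0.60 for all tested genes.

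**Figure D1:**
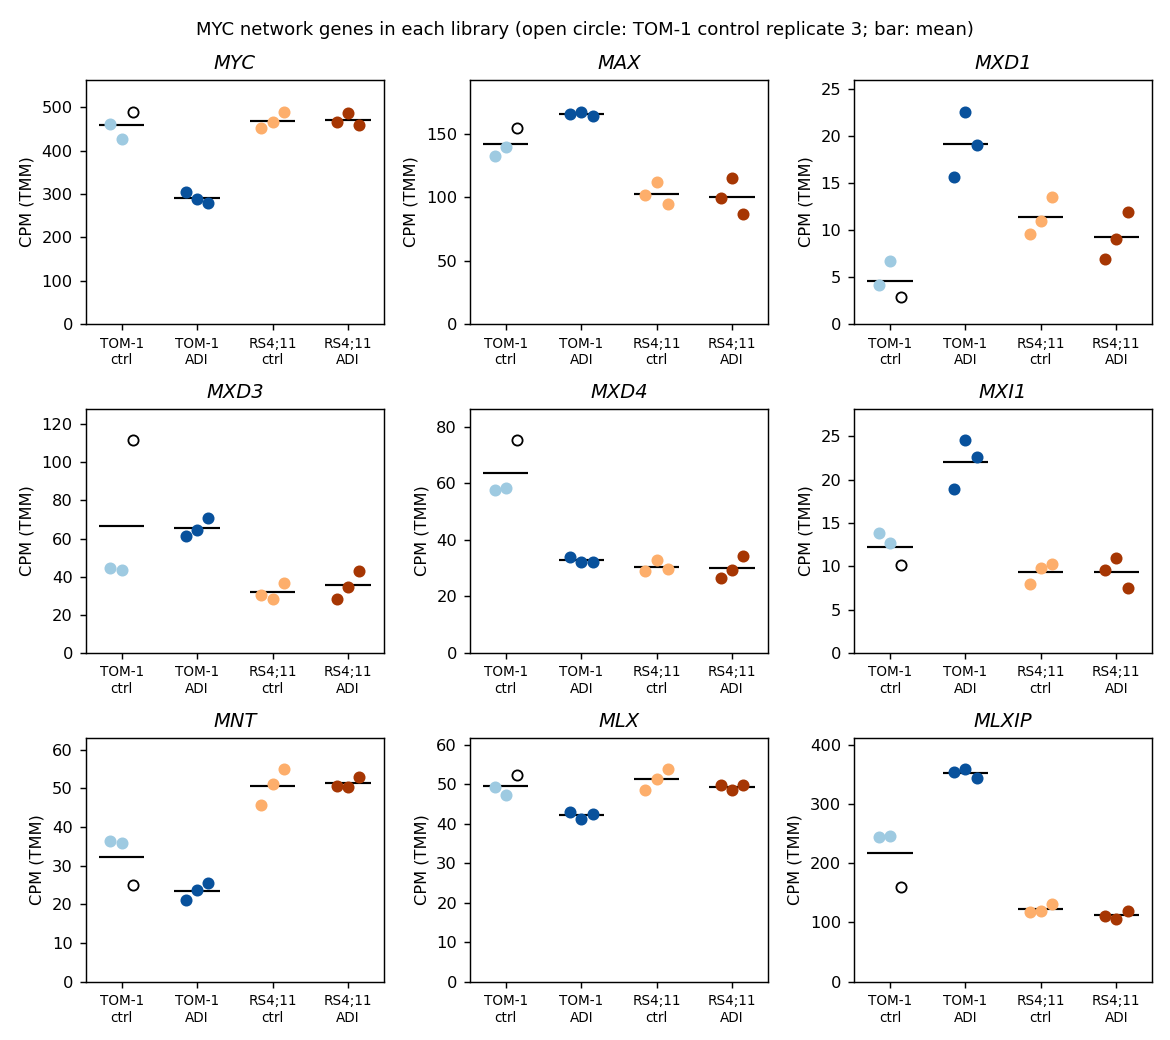
Level of each tested member in every library, in CPM on a linear axis, by group, with 3 points per group and a bar at the mean. In TOM-1 the MYC and MXD4 points of the treated group lie below all control points and the MXD1, MXI1 and MLXIP points lie above them, whereas the RS4;11 groups overlap in every panel.

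MYC (chr8:127735434-127741434, plus strand) is the activating member of the network. Gene positions are those of GENCODE 29 on GRCh38. Its level was 462.4, 426.0 and 490.4 CPM in the 3 TOM-1 control libraries and 304.6, 289.5 and 279.1 CPM in the 3 treated libraries. Every treated library lay below every control library. The log2 fold change was -0.66 (edgeR adjusted p = 0.000452, SE 0.10), and -0.61 (edgeR adjusted p = 2.59e-08, SE 0.06) without TOM-1 control replicate 3. In RS4;11 the level was 451.9, 467.1 and 490.0 CPM in control and 466.9, 486.9 and 460.0 CPM with ADI-PEG20, and the groups overlapped. The log2 fold change there was 0.00 (edgeR adjusted p = 1, SE 0.10). The libraries hold RNA from many cells, so fewer cells with a transcript and less of it per cell cannot be told apart here. MYCN (chr2:15940564-15947007, plus strand), the paralog of MYC that drives neuroblastoma, had 0 counts in all 12 libraries. A count of 0 allows up to 3 counts, or at most 0.158 CPM in the library with the highest such limit, by counting error only.

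MAX (chr14:65006174-65102695, minus strand), the partner of MYC and of its antagonists, was at 132.3, 139.5 and 154.6 CPM in TOM-1 control libraries and 165.5, 167.4 and 163.9 CPM in treated ones. The groups did not overlap, yet the log2 fold change of 0.22 (edgeR adjusted p = 0.216, SE 0.13) did not pass the test. Leaving out TOM-1 control replicate 3 gave 0.28 (edgeR adjusted p = 0.0172, SE 0.09), which did pass. In RS4;11, MAX stood at 101.8, 112.1 and 94.2 CPM in control and 99.6, 115.1 and 86.4 CPM in treated libraries. The RS4;11 groups overlapped, with a log2 fold change of -0.03 (edgeR adjusted p = 1, SE 0.13).

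The antagonists moved in different directions in TOM-1. MXD1 (chr2:69897688-69942945, plus strand), known to rise as blood cells differentiate, was at 4.18, 6.75 and 2.87 CPM in control libraries and at 15.6, 22.6 and 19.1 CPM in treated libraries. It was the member with the largest fold change, although it was the least abundant of the 9 in untreated TOM-1, with 52 to 173 counts per library. The log2 fold change was 2.05 (edgeR adjusted p = 0.000493, SE 0.31), and 1.82 (edgeR adjusted p = 2.81e-06, SE 0.25) without TOM-1 control replicate 3. In RS4;11 MXD1 was at 9.61, 11.0 and 13.5 CPM in control and 6.90, 9.04 and 11.9 CPM in treated libraries. These overlapped, with a log2 fold change of -0.30 (edgeR adjusted p = 1, SE 0.30). Treated TOM-1 libraries were thus above every RS4;11 library, and untreated TOM-1 libraries were below every RS4;11 library.

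MXI1 (chr10:110207605-110287365, plus strand), also called MXD2, was at 13.8, 12.6 and 10.2 CPM in TOM-1 control libraries and 18.9, 24.5 and 22.6 CPM in treated ones. All treated libraries lay above all control libraries. Its log2 fold change was 0.85 (edgeR adjusted p = 0.00606, SE 0.19), and 0.73 (edgeR adjusted p = 0.00184, SE 0.18) without TOM-1 control replicate 3. In RS4;11 it ranged from 7.90 to 10.3 CPM in control and 7.43 to 10.9 CPM in treated libraries, which overlapped.

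MXD4 (chr4:2247432-2262294, minus strand) moved opposite to MXD1. It was at 57.7, 58.3 and 75.1 CPM in TOM-1 control libraries and 34.0, 32.2 and 32.2 CPM in treated libraries, which did not overlap. MXD4 had a log2 fold change of -0.96 (edgeR adjusted p = 0.000459, SE 0.14), and -0.82 (edgeR adjusted p = 1.37e-06, SE 0.11) without TOM-1 control replicate 3. RS4;11 libraries were at 28.97 to 32.9 CPM in control and 26.6 to 34.4 CPM with ADI-PEG20, so the treated TOM-1 libraries lay within the range of the 6 RS4;11 libraries and the untreated ones above it.

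MNT (chr17:2384060-2401118, minus strand), the antagonist that most tissues express, was at 36.5, 35.8 and 24.9 CPM in TOM-1 control libraries and 21.2, 23.6 and 25.5 CPM in treated ones. The groups overlapped, because TOM-1 control replicate 3 lay below 1 treated library. The log2 fold change of -0.47 (SE 0.16) had an edgeR adjusted p of 0.0384, and it was -0.63 (edgeR adjusted p = 3.34e-05, SE 0.10) without that library. The call was lost when any of 5 libraries was left out, TOM-1 control 1 or 2, TOM-1 ADI-PEG20 1 or 2, or RS4;11 ADI-PEG20 1, with an edgeR adjusted p of up to 0.139. In RS4;11 MNT was at 45.7 to 54.9 CPM in control and 50.3 to 52.9 CPM in treated libraries. Of its exonic bases 12.2% overlap AC006435.1 on the opposite strand.

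MXD3 (chr5:177301461-177312757, minus strand), a member that proliferating cells express, gave a TOM-1 value that depended on a single library. It was at 44.5, 43.6 and 111.5 CPM in TOM-1 control libraries, where the last value is that of replicate 3, and at 61.2, 64.3 and 70.8 CPM in treated ones. Over all libraries its log2 fold change was -0.02 (edgeR adjusted p = 0.994, SE 0.31). Without TOM-1 control replicate 3 it was 0.57 (edgeR adjusted p = 0.00151, SE 0.13). The deposited notes used here do not give the strand setting of the counting, and 22.5% of the exonic bases of MXD3 overlap PRELID1 on the opposite strand and 18% overlap RAB24 on the same strand. PRELID1 was at 69.0, 60.4 and 123.9 CPM in the TOM-1 control libraries, with the same library highest, and at 36.2, 39.6 and 35.0 CPM in the treated ones. Whether shared reads bear on the MXD3 value was not tested.

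In the MLX branch, MLXIP (chr12:122078722-122147347, plus strand), the glucose-sensing partner of MLX, was at 243.9, 246.5 and 159.6 CPM in TOM-1 control libraries and 354.1, 358.3 and 343.1 CPM in treated libraries. All treated libraries lay above all control libraries. The log2 fold change was 0.70 (edgeR adjusted p = 0.00456, SE 0.15), and 0.52 (edgeR adjusted p = 1.09e-06, SE 0.07) without TOM-1 control replicate 3. In RS4;11 it was at 118.0, 119.8 and 130.8 CPM in control and 111.0, 106.3 and 119.7 CPM in treated libraries, with a log2 fold change of -0.13 (edgeR adjusted p = 1, SE 0.15). MLX (chr17:42567068-42573239, plus strand) was at 49.2, 47.3 and 52.3 CPM in TOM-1 control and 43.0, 41.1 and 42.6 CPM in treated libraries. These did not overlap, but the log2 fold change of -0.23 (edgeR adjusted p = 0.106, SE 0.10) did not pass, nor did -0.20 (edgeR adjusted p = 0.0710, SE 0.08) without TOM-1 control replicate 3. In RS4;11 MLX ranged from 48.6 to 53.8 CPM over all 6 libraries. Of its exonic bases 18.1% overlap PSMC3IP on the opposite strand.

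In RS4;11, 0 of the 9 tested members passed edgeR's test with all 12 libraries, as did 0.0% of all 17349 genes, and 0 had an unadjusted p under 0.05. The Wald test of DESeq2 also called 0 of them. The groups overlapped for each of the 9, whereas they did not overlap for 16.8% of all tested genes. Without TOM-1 control replicate 3, which enters the shared estimate of spread, 0 members and 0.317% of genes passed, 0 members were free of overlap, as against 16.3% of genes, and MLXIP alone had an unadjusted p under 0.05, with an edgeR adjusted p of 0.391. The members' median absolute log2 fold change was 0.0335, beside 0.149 for all tested genes.

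**Figure D2:**
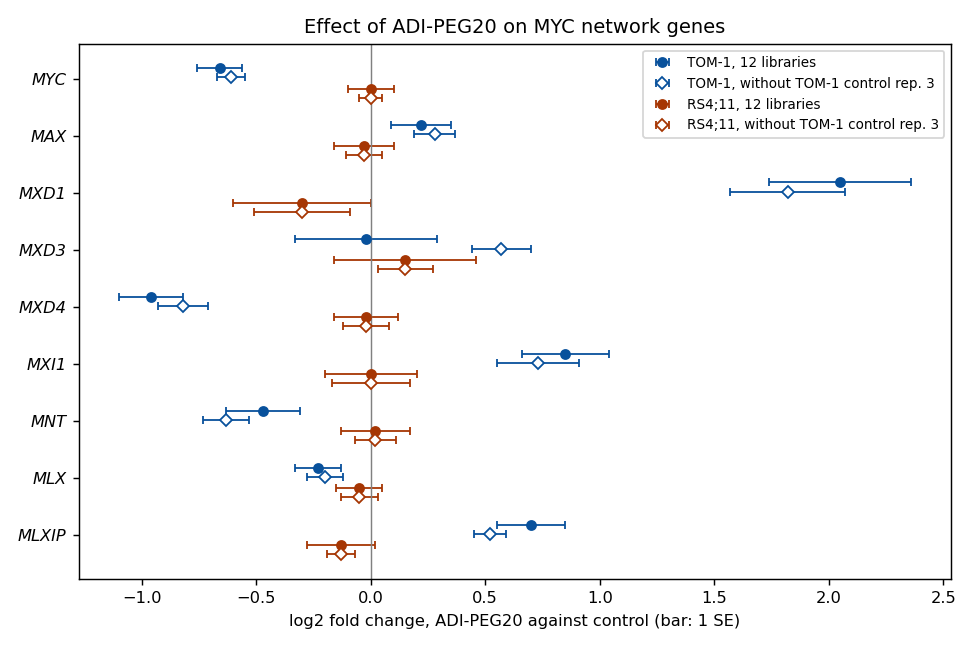
Log2 fold change of ADI-PEG20 against control for each tested member in TOM-1 and RS4;11, with bars of 1 standard error, from the fit of all 12 libraries and the fit that leaves out TOM-1 control replicate 3. The TOM-1 values spread from -0.96 for MXD4 to 2.05 for MXD1, and the RS4;11 values lie between -0.30 and 0.15.

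Whether the effect differed between the lines was tested as an interaction in the same model. It passed for 4 of the 9 members, 2 higher and 2 lower in TOM-1 relative to RS4;11, while 11.9% of all tested genes passed, 5.89% higher and 6.05% lower. The difference of the log2 fold changes, TOM-1 minus RS4;11, was -0.66 for MYC (edgeR adjusted p = 0.0102, SE 0.14) and -0.94 for MXD4 (edgeR adjusted p = 0.0115, SE 0.20). It was 2.34 for MXD1 (edgeR adjusted p = 0.00526, SE 0.43) and 0.83 for MLXIP (edgeR adjusted p = 0.0280, SE 0.21). The MLXIP difference lost its call in 9 of 12 fits that left out a library each, with an edgeR adjusted p of up to 0.0974, and it was 0.65 (edgeR adjusted p = 7.02e-06) without TOM-1 control replicate 3. The calls of MYC, MXD1 and MXD4 held in all 12 such fits, and the differences without TOM-1 control replicate 3 were -0.62, 2.12 and -0.80. MXI1 (0.85, edgeR adjusted p = 0.0657) and MNT (-0.49, edgeR adjusted p = 0.173) did not pass with all libraries, and passed without TOM-1 control replicate 3, with edgeR adjusted p of 0.0249 and 0.000913. Then 6 of the 9 passed, 3 higher and 3 lower, as did 30.4% of genes, 15.7% higher and 14.7% lower. The difference did not pass in either fit for MAX, MXD3 and MLX, at 0.25, -0.17 and -0.18 in the fit of all libraries and 0.32, 0.42 and -0.14 in the other.

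The untreated lines were compared next. Of the 9 members, 6 passed, 4 higher in TOM-1 and 2 lower, while 34.7% of all tested genes passed (16.2% higher, 18.4% lower), and the libraries did not overlap for 6 of 9 members, as for 42.7% of genes. MYC did not differ beyond its spread, at 459.6 ± 32.3 CPM (SD, n = 3) in TOM-1 and 469.7 ± 19.2 CPM (SD, n = 3) in RS4;11, with a log2 fold change of -0.03 (edgeR adjusted p = 0.845, SE 0.10). MLX did not pass either, at -0.05 (edgeR adjusted p = 0.763, SE 0.10).

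MXD4 was higher in TOM-1 by a log2 fold change of 1.06 (edgeR adjusted p = 0.000101, SE 0.14), with 63.7 ± 9.89 CPM (SD, n = 3) against 30.5 ± 2.08 CPM (SD, n = 3). MLXIP was higher by 0.82 (edgeR adjusted p = 0.00122, SE 0.15), with 216.7 ± 49.4 CPM against 122.9 ± 6.92 CPM (SD, n = 3 each). MAX was higher by 0.47 (edgeR adjusted p = 0.0130, SE 0.13), and this call was lost without RS4;11 control 1 or 3. MXD3 was higher by 1.06 (edgeR adjusted p = 0.0210, SE 0.32), and by 0.47 (edgeR adjusted p = 0.00602) without TOM-1 control replicate 3, and the call was lost without RS4;11 control 1 or 2. MXD1 was lower by a log2 fold change of -1.30 (edgeR adjusted p = 0.00576, SE 0.31) and MNT by -0.64 (edgeR adjusted p = 0.00676, SE 0.16). The members that passed between the untreated lines were therefore antagonists, MAX and MLXIP. Leaving out TOM-1 control replicate 3, the values were 0.92 for MXD4, 0.99 for MLXIP, 0.40 for MAX, -1.07 for MXD1 and -0.49 for MNT, each past the threshold. MYC at -0.08 and MLX at -0.09 did not pass in that fit. In the same fit MXI1 was also higher in TOM-1, at 0.50 (edgeR adjusted p = 0.0228), so that 7 of the 9 passed, 5 higher and 2 lower, as did 52.8% of genes, 25.4% higher and 27.5% lower. The libraries then did not overlap for 7 of 9 members, as for 66.5% of genes.

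Levels were compared between genes only per length, as CPM per kilobase of merged GENCODE 29 exons. In untreated TOM-1, MYC was at 153.2 ± 10.8 CPM per kilobase (SD, n = 3), followed by MAX at 32.1 ± 2.57. MLXIP at 15.6 ± 3.55, MXD3 at 12.9 ± 7.56 and MLX at 11.7 ± 0.596 came next, in that order, and neighbours among these 3 overlapped between libraries. MXD4 at 9.02 ± 1.40 followed, then MNT at 3.71 ± 0.744 and MXI1 at 2.65 ± 0.403, which overlapped, and MXD1 at 0.724 ± 0.311 was lowest. Without replicate 3, MXD3 was at 8.55 and came after MLXIP at 17.6 and MLX at 11.3, with no overlap of neighbours in the whole order. In treated TOM-1 the order began MYC at 97.0 ± 4.27, MAX at 37.4 ± 0.394, MLXIP at 25.3 ± 0.565, MXD3 at 12.7 ± 0.949 and MLX at 9.91 ± 0.229, with no overlap of neighbours. It ended with MXI1 at 4.78 ± 0.616 and MXD4 at 4.65 ± 0.147, which overlapped, and MXD1 at 3.01 ± 0.549 and MNT at 2.69 ± 0.249, which also overlapped.

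In untreated RS4;11 the order was MYC at 156.5 ± 6.40, MAX at 23.2 ± 2.04, MLX at 12.04 ± 0.603 and MLXIP at 8.84 ± 0.497 CPM per kilobase (SD, n = 3). MXD3 at 6.19 ± 0.870 and MNT at 5.79 ± 0.531 overlapped, MXD4 followed at 4.32 ± 0.295, and MXI1 at 2.03 ± 0.274 and MXD1 at 1.79 ± 0.314 overlapped. In treated RS4;11 the order was the same, from MYC at 157.0 ± 4.66 to MXD1 at 1.46 ± 0.394, and MLXIP, MXD3 and MNT overlapped there as neighbours. Merged exons count every annotated transcript. With the median length of its coding transcripts instead, an alternative chosen after the data were seen, MAX stood at 216.4 and MYC at 142.5 in treated TOM-1, so the order of MYC and MAX there depends on the length used. The order of MLX and MLXIP in RS4;11 depends on it as well, since MLXIP then stood at 24.1 and 22.0 and MLX at 21.1 and 20.3 in untreated and treated libraries.

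**Figure D3:**
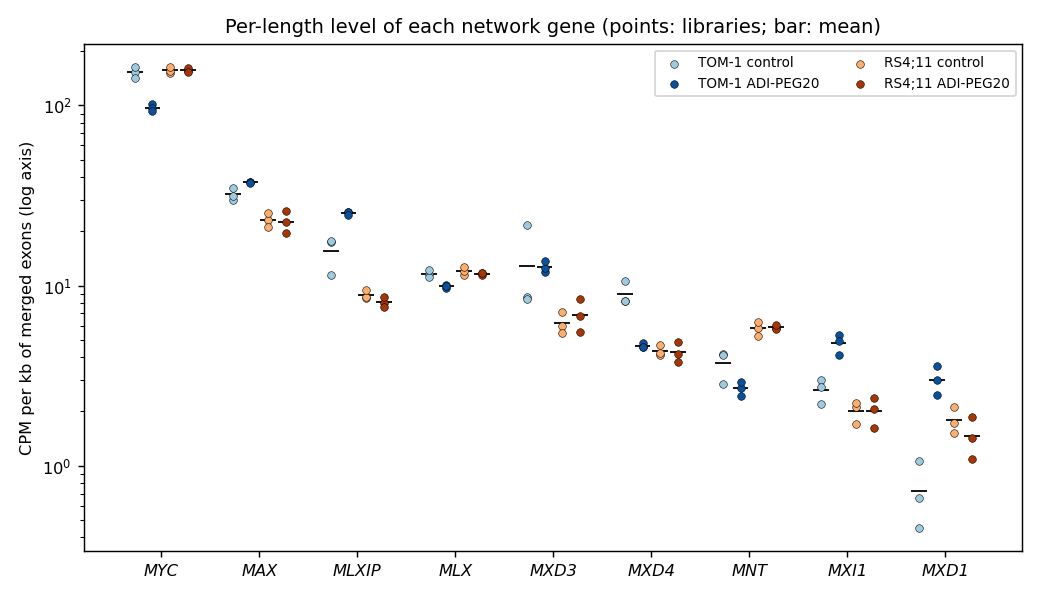
Level per length of each tested member by group, in CPM per kilobase of merged exons on a log axis, with 3 points per group and a bar at the mean. By this length MYC is highest in every group, at 97.0 in treated TOM-1 and 153.2 to 157.0 in the other groups.

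Per length, the summed antagonists MXD1, MXD3, MXD4, MXI1 and MNT were 0.188 ± 0.0379 of MYC (SD, n = 3) in untreated TOM-1, and 0.167 without replicate 3. They were 0.288 ± 0.0311 of MYC in treated TOM-1 and 0.128 ± 0.00601 and 0.131 ± 0.0162 in untreated and treated RS4;11 (SD, n = 3 each). The sum itself was 29.01 ± 7.60 and 27.8 ± 1.86 CPM per kilobase in untreated and treated TOM-1, which overlapped. It was 24.6 CPM per kilobase in untreated TOM-1 without replicate 3, below each treated library. Within the sum the share of MXD1 was 2.73% in untreated and 10.8% in treated TOM-1, and that of MXI1 was 9.71% and 17.1%. The share of MXD4 was 31.6% and 16.8%, that of MNT 13.7% and 9.65%, and that of MXD3 42.2% and 45.6%. Without replicate 3 the untreated shares were 3.49% for MXD1, 11.6% for MXI1, 33.35% for MXD4, 16.8% for MNT and 34.7% for MXD3, so the MXD3 share was then below that of each treated library. The ratio of MAX to MYC was 0.210 ± 0.0144 and 0.386 ± 0.0158 in TOM-1, with 0.208 in the untreated line without replicate 3, and 0.148 and 0.144 in RS4;11. The ratio of MLXIP to MLX was 1.35 ± 0.362 and 2.55 ± 0.103 in TOM-1, with 0.935 in replicate 3 of the untreated line and 1.56 without it, and 0.734 and 0.697 in RS4;11. These ratios are descriptions with no test, and they are ratios of RNA, not of protein. The ratios and shares use merged-exon length and depend on that choice. By the median length of coding transcripts, MAX stood above MYC in treated TOM-1, at 216.4 against 142.5.

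Other genes of the pathway were taken from lists that follow their roles. The lists were chosen with earlier results of these data known, so their counts beside all tested genes are descriptions only. Of 52 genes that MYC is known to activate, most of them for ribosome assembly, 40 fell and 1 rose in TOM-1. Of all tested genes 15.9% fell and 15.9% rose. The median log2 fold change was -0.94 beside 0.05 for all tested genes. When TOM-1 control replicate 3 was left out, 44 fell and 2 rose, beside 19.8% and 21.8% of all genes, and the median was -0.73. HSPE1, a mitochondrial chaperonin, was at 92.5, 93.6 and 198.8 CPM in control and 17.8, 17.7 and 13.6 CPM in treated libraries, a log2 fold change of -2.97 (edgeR adjusted p = 1.94e-05, SE 0.27), and -2.51 without TOM-1 control replicate 3. DCTPP1, which clears damaged nucleotides, fell by 2.36 (edgeR adjusted p = 0.000329, SE 0.34) on the log2 scale, and PHB1, a mitochondrial scaffold protein, fell by 2.33 (edgeR adjusted p = 0.000125, SE 0.28). In both, TOM-1 control replicate 3 was the highest control library, and without it they fell by 1.71 and 1.80. AIMP2, a scaffold of the aminoacyl-tRNA synthetase complex, was the gene of the list that rose with all libraries, by 0.63 (edgeR adjusted p = 0.00478, SE 0.14), and by 0.75 without that library, where NDUFAF4, a complex I assembly factor named after its value was seen, also rose, by 0.50 (edgeR adjusted p = 0.000878).

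In RS4;11, 0 of these 52 passed edgeR's test, and 3 had an unadjusted p under 0.05. Their median was -0.15, with 49 of 52 below 0, beside a median of 0.00 for all tested genes. Without TOM-1 control replicate 3, 1 fell, TBRG4, at -0.35 (edgeR adjusted p = 0.0324), named after its value was seen, and 30 had an unadjusted p under 0.05. The difference between the lines passed for 26 of the 52, 25 of them lower in TOM-1, beside 11.9% of all tested genes, 6.05% lower. In the fit leaving out that library it passed for 40 of the 52, 38 of them lower, beside 30.4% of all genes, 14.7% lower. CACGTG was found in 25 of the 58 promoter windows matched for 45 of these genes (43.1%), beside 7.26% of all windows. The genes were listed as known MYC targets, so a high share may follow from that choice. It describes the list and not the response to ADI-PEG20.

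Of 11 genes that MYC is known to repress, 6 rose and 1 fell in TOM-1, beside 15.9% and 15.9% of all tested genes. The median log2 fold change was 0.54, beside 0.05 for all tested genes. Leaving out TOM-1 control replicate 3, 6 rose and 1 fell, beside 21.8% and 19.8% of all genes, with a median of 0.44. KLF6, a growth-restraining zinc finger factor, rose by 2.32 (edgeR adjusted p = 0.000120, SE 0.28), BTG1, an antiproliferative factor of B cells, by 1.86 (edgeR adjusted p = 4.49e-06, SE 0.13), and CDKN1A, the inhibitor p21, by 1.74 (edgeR adjusted p = 7.16e-06, SE 0.14). In the fit without that library they rose by 1.99, 2.03 and 1.90. CDKN2C, the inhibitor p18, was at 111.0, 123.3 and 175.2 CPM in control and 49.9, 50.7 and 47.8 CPM in treated libraries, a log2 fold change of -1.46 (edgeR adjusted p = 4.62e-05, SE 0.15), and -1.25 without TOM-1 control replicate 3. In RS4;11, 0 of the 11 passed edgeR's test in either fit, and 0 had an unadjusted p under 0.05 with all libraries and 2 without that library.

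Of 6 genes named for activation by MLX with MLXIP or its relative, 4 were tested and all 4 rose in TOM-1 in both fits, beside 15.9% of all tested genes in the first and 21.8% in the fit that leaves out TOM-1 control replicate 3. PKLR and G0S2 had too few reads. TXNIP, which restrains glucose uptake, was at 52.8, 61.4 and 41.0 CPM in control and 229.9, 223.4 and 216.4 CPM in treated libraries, a log2 fold change of 2.11 (edgeR adjusted p = 3.01e-06, SE 0.14), and 1.97 without replicate 3. Its RS4;11 libraries were at 50.6 to 53.1 CPM in control and 57.8 to 65.8 CPM in treated, with a log2 fold change of 0.22 (edgeR adjusted p = 1). ARRDC4, an arrestin-like relative of TXNIP, had 0 to 2 counts in untreated TOM-1 libraries and 68 to 85 counts in treated ones (edgeR adjusted p = 1.21e-05), and at such counts its fold change depends on the prior count. KLF10 was higher by 1.21 (edgeR adjusted p = 0.0160, SE 0.33), or 0.83 without TOM-1 control replicate 3. PFKFB3, which raises glycolytic flux, was higher by 0.73 (edgeR adjusted p = 0.00127, SE 0.13), or 0.66 without it. Among RS4;11 libraries, 0 of the 4 passed edgeR's test in either fit, with 0 under an unadjusted p of 0.05 in the fit of all libraries and 1 in the other.

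**Figure D4:**
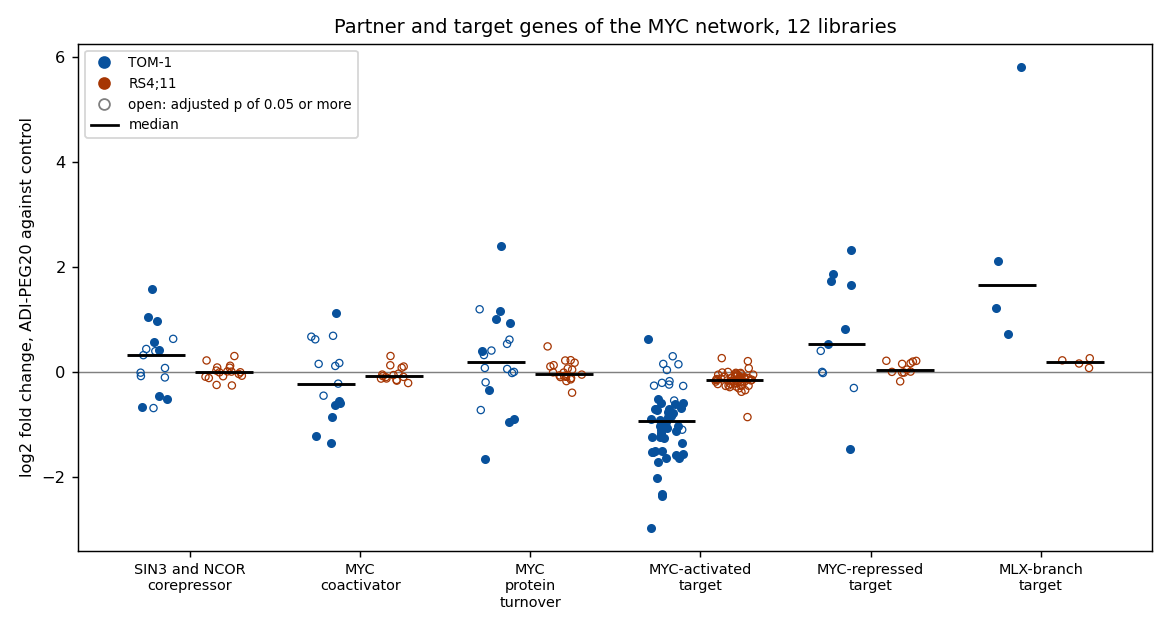
Log2 fold change of ADI-PEG20 against control for the genes of each list in TOM-1 and RS4;11, 1 point per gene, with a line at the median. The 52 MYC-activated genes centre at -0.94 in TOM-1 and -0.15 in RS4;11, and the TOM-1 point of ARRDC4 rests on control libraries with 0 to 2 counts.

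Of the 17 genes of the corepressor complexes through which MXD proteins act, 5 rose and 3 fell in TOM-1, beside 15.9% and 15.9% of all tested genes, with a median log2 fold change of 0.32 beside 0.05. Leaving out TOM-1 control replicate 3, 6 rose and 5 fell, beside 21.8% and 19.8%, with a median of 0.18. ARID4A, a SIN3 subunit, was at 39.5, 37.6 and 14.7 CPM in control and 89.0, 90.8 and 94.6 CPM in treated libraries, and rose by 1.57 (edgeR adjusted p = 0.00152, SE 0.28), or 1.24 without that library. ARID4B, another SIN3 subunit, rose by 0.98 (edgeR adjusted p = 0.0198, SE 0.28), or 0.63 without TOM-1 control replicate 3. The deacetylases HDAC1 and HDAC2 fell by 0.51 (edgeR adjusted p = 0.00290, SE 0.10) and 0.47 (edgeR adjusted p = 0.00270, SE 0.09), and the histone chaperone RBBP7 fell by 0.66 (edgeR adjusted p = 0.000367, SE 0.10). In the fit without that library these 3 fell by 0.44, 0.47 and 0.61.

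Of 15 coactivators of MYC, 6 fell in TOM-1, beside 15.9% of all tested genes, and 8 fell without TOM-1 control replicate 3, beside 19.8%. KAT2A, an acetyltransferase, fell by 1.35 (edgeR adjusted p = 0.000131, SE 0.16), WDR5 by 0.86 (edgeR adjusted p = 0.000281, SE 0.12) and RUVBL2 by 1.22 (edgeR adjusted p = 0.00434, SE 0.26). Without TOM-1 control replicate 3, KAT2A and WDR5 fell by 1.13 and 0.74. The RUVBL2 value became -0.71 without TOM-1 control replicate 3, in which it was at 437.0 CPM against 179.1 and 199.8 CPM in the other controls.

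Of 20 genes that set the stability of the MYC protein, 5 rose and 4 fell in TOM-1, beside 15.9% and 15.9% of all tested genes, and 7 rose and 4 fell without TOM-1 control replicate 3, beside 21.8% and 19.8%. SKP2, a ubiquitin ligase subunit, fell by 1.67 (edgeR adjusted p = 0.000227, SE 0.22), the kinase PIM2 by 0.95 (edgeR adjusted p = 0.000657, SE 0.15) and the ligase STUB1 by 0.89 (edgeR adjusted p = 0.0190, SE 0.25), or 0.42 without TOM-1 control replicate 3. FBXL14, a ligase subunit, rose by 1.16 (edgeR adjusted p = 0.0222, SE 0.34), the kinase PIM1 by 1.01 (edgeR adjusted p = 0.00375, SE 0.21) and CIP2A, an inhibitor of the phosphatase PP2A, by 0.93 (edgeR adjusted p = 0.0262, SE 0.29). In the fit without that library SKP2 and PIM2 fell by 1.93 and 0.98, and FBXL14, PIM1 and CIP2A were at 0.77, 0.87 and 0.59. In RS4;11 with all 12 libraries, 0 of the corepressor, coactivator and turnover genes passed edgeR's test, and 0 had an unadjusted p under 0.05. STUB1 was nevertheless lower there by 0.40, at 54.2 to 59.4 CPM in control and 40.85 to 45.4 CPM in treated libraries. Its difference between the lines was -0.49 (edgeR adjusted p = 0.421) with all libraries and -0.02 (edgeR adjusted p = 0.978) without TOM-1 control replicate 3. In the fit without TOM-1 control replicate 3, 4 of the corepressor, 3 of the coactivator and 5 of the turnover genes had an unadjusted p under 0.05. The coactivator BPTF, named after its value was seen, then passed, at 0.30 (edgeR adjusted p = 0.0408).

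Of the 3 other genes of the same structural family, MGA, which pairs with MAX, was higher in treated TOM-1 by 1.02 (edgeR adjusted p = 0.0336, SE 0.33), or 0.63 (edgeR adjusted p = 6.26e-07, SE 0.08) without TOM-1 control replicate 3, where it was at 23.8 CPM against 78.9 and 82.1 CPM in the other controls. MYCL had 0 counts in the TOM-1 control libraries, 0 to 8 in the treated ones and 10 to 23 in untreated RS4;11, and its TOM-1 change did not pass (edgeR adjusted p = 0.101). MLXIPL, the relative of MLXIP in liver and fat, had 0 to 3 counts in every library and was not tested.

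The genes whose pattern across libraries was most like that of MYC were BSG, MRPL57, B4GALT5 and RPS13, with Pearson r of 0.994, 0.993, 0.993 and 0.993. For MXD1 they were EXOSC8, HLA-F, GOLGA1 and TESK1, with r of 0.97, 0.959, 0.937 and 0.935. These values were taken on log2 CPM over the 11 libraries other than TOM-1 control replicate 3, among 10554 genes, and they share the libraries' groups, so they describe only that the levels follow the same groups.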

How the data were processed

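The authors deposited raw counts, whole numbers of reads per Ensembl gene for 12 poly(A) libraries, not normalized. STAR, SAMtools, featureCounts and hg38 are named in the submitters' processing notes. Versions, the strand setting and the annotation release are not given in the sources used here, so reads of overlapping genes may have been shared. Samples were grouped by title and columns matched by the description. Members and gene lists were chosen with earlier results of these data known. A table of Ensembl names gave symbols for 60463 of 60664 identifiers.

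In R 4.3.3, edgeR 4.0.16 (filterByExpr, TMM, glmQLFit, glmQLFTest) was fitted to all 12 libraries in 1 group-means model, with Benjamini-Hochberg adjustment over 17349 genes and a threshold of 0.05. The SE is the log2 fold change over the square root of F. The fit was tested on simulated data. Named list genes were up to 3 per direction with the largest change in TOM-1, past the threshold, with a mean of at least 5 CPM and no overlap between groups, and every gene of lists with 6 or fewer. Of the genes this rule selects, some are not reported here. Alternatives were DESeq2 1.42.0 (size factors, Wald test), no filter, the 6 libraries of a contrast, the replicate number as a block, and each library left out. Deviations of same-numbered libraries correlated at -0.062 to 0.145, which does not settle whether they are paired. Exons and positions came from GENCODE 29 and promoters from RefSeq GRCh38.p14. Figures used matplotlib 3.10.9.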

Additional observations from a re-analysis of the deposited data

Results flagged for a closer look

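The effect of ADI-PEG20 differed between TOM-1 and RS4;11 by the test of the difference itself for 4 members with all 12 libraries. For MLXIP the call was lost in 9 of 12 fits that left out a library each. The calls of MYC, MXD1 and MXD4 held in all 12 such fits. On the log2 scale, TOM-1 minus RS4;11, the difference was -0.66 for MYC, 2.34 for MXD1, -0.94 for MXD4 and 0.83 for MLXIP, with edgeR adjusted p of 0.0102, 0.00526, 0.0115 and 0.0280. In TOM-1 the 3 treated libraries lay outside the range of the 3 controls for each of the 4, and in RS4;11 the groups overlapped.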

How the results depend on the processing

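The number of members called in TOM-1 ran from 5 to 8 when 1 library was left out in turn, in RS4;11 from 0 to 0, for the difference between lines from 3 to 6, and for the untreated lines from 4 to 7. Over all genes these ranges were 3960 to 7616, 0 to 58, 1169 to 5567 and 4731 to 9681. The highest counts over all genes came without TOM-1 control replicate 3. With the 6 libraries of a contrast alone, 2639 genes were called in TOM-1, 3 in RS4;11 and 3548 between the untreated lines, where 3 members were called in place of 6. DESeq2's Wald test called 3228 genes for the difference, against 2072 with edgeR. No fit on 6 libraries exists for the difference.

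Whether replicate numbers pair the samples was not settled. Of 18 same-numbered pairs, 1 had a correlation of deviations over 0.1 (range -0.062 to 0.145), and 7 of 12 libraries correlated best with their own number. Control and treated libraries of the same number correlated at 0.057, 0.031 and 0.145 in RS4;11, and at -0.027, -0.012 and -0.062 in TOM-1. With the replicate number as a block, 5 members and 5324 genes were called in TOM-1, 0 and 0 in RS4;11, 4 and 1939 for the difference, and 6 and 5647 between the untreated lines. MNT then had an edgeR adjusted p of 0.0596 in TOM-1, and MXD3 a log2 fold change of 0.09.

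Some log2 fold changes that did not pass the test with all 12 libraries changed sign, and the cause was not tested. For MXD3, the log2 fold change ran from -0.29 to 0.57 in TOM-1, from -0.44 to 0.42 for the difference and from -0.01 to 0.29 in RS4;11 as each library was left out. In RS4;11 the ranges were -0.02 to 0.04 for MYC, -0.14 to 0.07 for MAX, -0.12 to 0.07 for MXD4, -0.13 to 0.14 for MXI1 and -0.04 to 0.09 for MNT. MXI1 in RS4;11 was also 0.01 with DESeq2 size factors, 0.01 with no filter, 0.01 with DESeq2's Wald test and 0.00 with 6 libraries alone. Over the members' log2 fold changes and all alternatives, 551 values kept their direction and side of the threshold, 25 lost their call, 5 gained one and 22 changed sign. The values that changed sign include MXD3 in TOM-1 without TOM-1 control replicate 3. It passed there (edgeR adjusted p = 0.00151) and is not among the 5. Depth limits MYCN, at 0 counts in all 12 libraries, which could not be tested, and MXD1 in untreated TOM-1, at 52 to 173 counts per library.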
